A study of Mus musculus with 6 samples.

Results

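B cell lineage transcripts were followed through 6 RNA-seq libraries of spleen cell cultures labelled as CD8+ T cells. The set holds 32 genes of the 56941 in the count table and was chosen by name: chains of the B cell receptor, its signalling proteins and co-receptors, the MHC class II presentation genes, B cell transcription factors and other B cell surface or secretory pathway genes. That such transcripts are present in these cultures had been seen in the same libraries when the genes were named, so their presence and levels are given here as a description. The cells came from the spleens of B6 mice. Per the labels, naive CD8+ T cells were purified from splenocytes and activated for 3 days on plate-bound anti-CD3 and anti-CD28 with rIL2, and 24 h into activation the medium received either vehicle or 5 µM sphingosine-1-phosphate (S1P), a bioactive lipid that acts through G protein-coupled receptors. There were 3 vehicle-treated and 3 S1P-treated libraries, titled as biological replicates. The labels do not say whether the replicates came from separate mice, so p-values measure the spread between these cultures. No genotype or transgene distinguished the groups. The study's methods allow either purified naive T cells or total splenocytes as the starting population of such cultures, and which one gave each library is not stated beyond the label.

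A B cell carries an antigen receptor made of membrane immunoglobulin (a heavy chain such as IgM or IgD with a kappa or lambda light chain) bound to the signalling pair CD79A and CD79B. Receptor engagement activates kinases such as SYK, LYN and BTK, while co-receptors such as CD21 (the product of Cr2) raise the response and inhibitory receptors such as CD22 and CD72 restrain it. B cells also present antigen to CD4+ T cells on MHC class II, and the transcription factors EBF1 and PAX5 establish and keep B cell identity. In the spleen, mature B cells are a large lymphocyte population beside T cells.

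Each library held 12048880 to 17384084 counts. S1P replicate 2 stood apart: 7.80% of its counts came from mitochondrially encoded genes, against 4.10% to 4.93% in the other 5 libraries. The pairs of S1P replicates that included it also differed more per gene than any other replicate pair. Vehicle replicate 2 had the lowest level among vehicle libraries for 30 of the 32 members, whereas it was the lowest for 33.8% of all 13299 tested genes. Members whose call changes when a library is left out are named below, with values from some or all of those fits. Of the cell type label, the T cell genes Cd3e, Cd8a and Cd8b1 stood at 58.5, 49.6 and 44.4 CPM per kb of exon. CPM are counts scaled to a common library size with TMM factors. Division by exon length allows only a rough comparison of different genes. The length takes all annotated exons of a gene, merged over its transcripts, and the expressed transcript can be shorter. Cd4, the co-receptor of helper T cells, stood at 46.8 CPM per kb, a level like that of Cd8a.

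Promoter sequences of the 3 H2 members share a motif near the start that Ciita does not hold in its window, and that other genes hold as well. The 100 bases before the start of the canonical transcript are printed for H2-Aa, H2-Ab1 and H2-Eb1, read from the GRCm39 genome with GENCODE vM39 starts, each 5′ to 3′ on the gene's strand. Capitals mark GATTGG, the core of the Y box of MHC class II promoters, or its reverse complement CCAATC. The windows are chr17:34506798-34506897 (minus strand) for H2-Aa, chr17:34482083-34482182 (plus strand) for H2-Ab1 and chr17:34524713-34524812 (plus strand) for H2-Eb1.
H2-Aa: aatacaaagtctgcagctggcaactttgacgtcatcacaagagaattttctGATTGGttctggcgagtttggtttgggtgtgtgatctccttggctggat
H2-Ab1: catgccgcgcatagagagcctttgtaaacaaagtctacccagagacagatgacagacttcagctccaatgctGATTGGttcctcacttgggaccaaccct
H2-Eb1: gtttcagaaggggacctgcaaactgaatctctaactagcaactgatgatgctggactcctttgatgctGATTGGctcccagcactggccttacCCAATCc
The motif began 49, 28 and 32 bases before the start in H2-Aa, H2-Ab1 and H2-Eb1, respectively. H2-Eb1 held a further reverse match beginning 7 bases before the start.

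The same windows are printed for Cd180 and Ebf1, members with an octamer match near the start, chosen after their values were seen because 1 fell and 1 rose in the comparison below. Capitals mark ATGCAAA, the reverse complement of TTTGCAT, which is 7 of the 8 letters of the octamer bound by OCT factors and their B cell co-activator, the product of Pou2af1. The windows are chr13:102829941-102830040 for Cd180 and chr11:44508038-44508137 for Ebf1, both on the plus strand.
Cd180: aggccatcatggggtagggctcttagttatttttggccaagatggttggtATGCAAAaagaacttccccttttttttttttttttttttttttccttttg
Ebf1: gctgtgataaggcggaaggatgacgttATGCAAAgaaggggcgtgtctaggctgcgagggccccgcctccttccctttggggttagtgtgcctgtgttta
The match began 50 bases before the start in Cd180, where a forward match also began 4 bases before the start and ran past it, and 73 bases before the start in Ebf1. Windows of 300 bases (250 before to 50 after the start) were searched on both strands for 28 members. The other members are the immunoglobulin constant genes, which have no such window, and Cd74, which was left out. The octamer letters were found in 5 of the 28 windows, against 4.56% of the windows of 21667 protein-coding genes. The Y box letters were found in 8 of 28, against 18.2%. GAGGAAG, an ETS site of the kind bound by SPI-B, was found in 4 of 28, against 13.2%. A match describes the sequence and does not show binding.

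All 32 members had counts in every library, from 7 for Vpreb3 in S1P replicate 2 to 10954 for Cd74 in vehicle replicate 1. At least 100 counts were present in every library for 28 members. Together they took 0.287% to 0.357% of the counts in vehicle libraries and 0.301% to 0.318% in S1P libraries. Igkc, the kappa light chain constant gene, had the highest level per length among the members, at 370.1 CPM per kb averaged over the 6 libraries. Ighm, the IgM heavy chain, followed at 281, and Cd74, the invariant chain that guides MHC class II molecules, at 212 CPM per kb. In level per length these exceeded 99.5%, 99.4% and 99.1% of tested genes, respectively. The receptor subunits Cd79a and Cd79b stood at 44.1 and 38.9 CPM per kb and Ms4a1 (the B cell surface protein CD20) at 30.5 CPM per kb. The median of the tested genes was 3.84 CPM per kb. At the low end stood Cr2, the complement receptor CD21, at 0.865 and Vpreb3, an endoplasmic reticulum protein of immunoglobulin assembly, at 1.49 CPM per kb. The plot of levels by library shows all members on 1 axis.

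**Figure D1:**
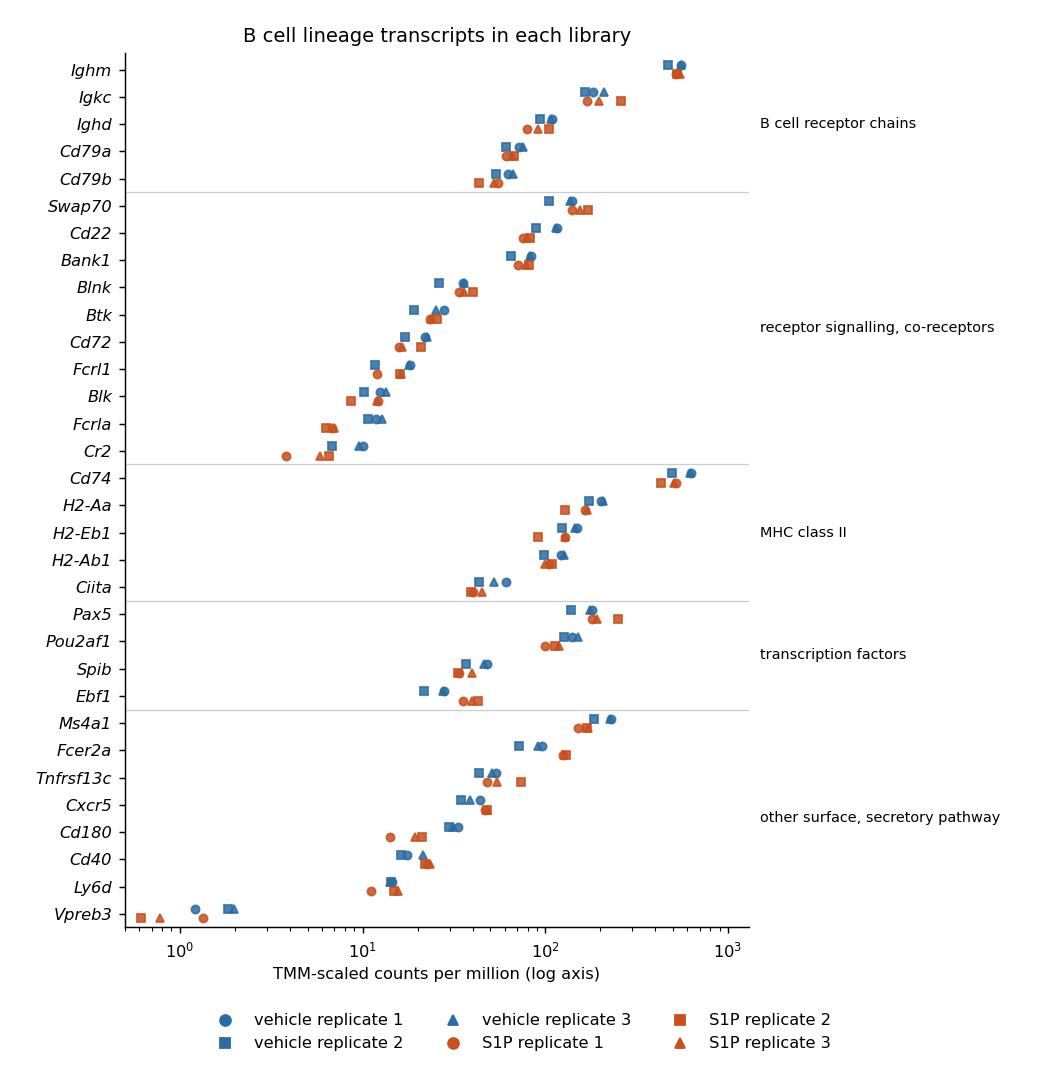
Level of each of the 32 B cell lineage transcripts in each library, in TMM-scaled CPM on a log axis, grouped by role. Blue marks are vehicle-treated and orange marks S1P-treated libraries, with 1 shape per replicate number. Cd74 and Ighm lead, Vpreb3 is lowest, and the vehicle replicate 2 square is the leftmost blue mark in 30 of 32 rows.

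Set against Cd3e, a chain of the T cell receptor complex, the level per length of Cd79a was 0.825 ± 0.083 in vehicle and 0.704 ± 0.104 in S1P libraries (mean ± SD, n = 3 in each). The ratio was between 0.584 and 0.881 in single libraries. Against Cd3d and Cd3g, other chains of the same complex, Cd79a stood at 0.881 ± 0.133 and 0.894 ± 0.126 in vehicle and at 0.989 ± 0.050 and 0.958 ± 0.059 in S1P libraries, so the direction of the ratio between groups turned with the chain chosen. Ms4a1 over Cd3e was 0.622 ± 0.075 in vehicle and 0.439 ± 0.068 in S1P libraries, over Cd3d 0.665 ± 0.113 and 0.617 ± 0.028, and over Cd3g 0.675 ± 0.108 and 0.597 ± 0.031. Such ratios are not shares of cells, because RNA per cell differs between cell types and genes. They also depend on the exon lengths used, which were 1523 bases for Cd79a and 4081 for Cd3e. Before division by length, Cd79a was at 67.1 and Cd3e at 239 CPM on average over all libraries. In these bulk libraries, fewer B cells and less RNA of a gene per B cell cannot be told apart.

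Summed over all 32 members, the level was 3507.5, 2860.4 and 3508.5 CPM in vehicle replicates 1 to 3 and 3003.8, 3175.3 and 3179.8 CPM in S1P replicates 1 to 3. The S1P values lay between the vehicle values, so the groups overlapped. The means were 3292 ± 374 and 3120 ± 100 CPM (SD, n = 3 each), a log2 ratio of -0.08 that was smaller than the spread of the vehicle libraries. Without vehicle replicate 2 the log2 ratio was -0.17. The summed B cell level in vehicle replicate 1 was 1.23 times that in replicate 2. The summed level of 6 CD3, CD8 and Gzmb genes was highest in vehicle replicate 2, at 3576 CPM against 2859.5 and 2911 in vehicle replicates 1 and 3. Gzmb made up most of that sum, at 2047, 2637 and 2057 CPM in vehicle replicates 1 to 3. Cd3e was highest in vehicle replicate 3 (219, 225 and 236 CPM in replicates 1 to 3), and the other genes of the list in vehicle replicate 2. The part of these differences between vehicle libraries in any result was not tested.

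In the comparison of S1P with vehicle, edgeR fitted all 13299 tested genes, and a gene was called when its Benjamini-Hochberg adjusted p was at most 0.05 and its log2 fold change at least 0.3 in size. Of the 32 members, 8 fell and 2 rose. Over all tested genes, 10.4% fell and 12.7% rose. A further member, Cxcr5, passed the adjusted p but not the fold. The other 21 missed the adjusted p, among them Pax5 and Vpreb3, which passed the fold. The groups did not overlap for 7 members that were lower and 6 that were higher with S1P, against 22.7% and 22.8% of all tested genes. In either direction, 10 members were called and 13 did not overlap, against 23.1% and 45.5% of all tested genes. The median log2 fold change of the members was -0.14, against 0.01 over all tested genes. Members differed widely around it, from -0.81 for Fcrla to 0.60 for Ebf1. The genes were named with results of this comparison known, so these counts describe the list and support nothing beyond the single genes. Without vehicle replicate 1, 3 members fell and 3 rose, against 7.90% and 9.39% of all genes tested in that fit. Without vehicle replicate 3, 3 fell and 3 rose, against 7.12% and 8.58%. Without vehicle replicate 2, 11 fell and 2 rose, against 8.32% and 9.61%, with Cd74, Cd79b and Spib gained. Without S1P replicate 1, 8 fell and 5 rose, against 11.1% and 12.9%. The fits without S1P replicate 2 (7 lower and 2 higher) and without S1P replicate 3 (8 lower and 2 higher) stood against 9.17% and 11.6%, and 9.61% and 10.5%, of all genes. The calls of Fcrla, Cd180, Cd22, Fcer2a and Ebf1 were kept whichever library was left out.

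**Figure D2:**
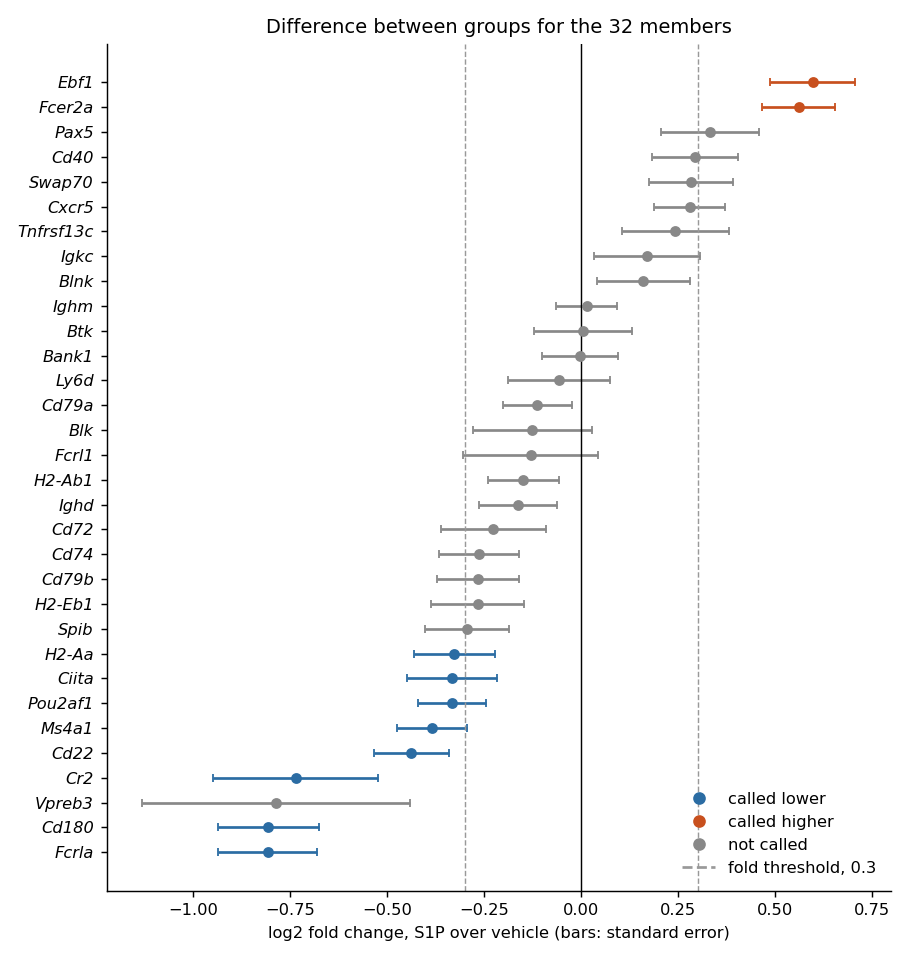
Log2 fold change of S1P over vehicle for each member, from the edgeR fit over all tested genes, with its standard error as the bar (3 libraries per group). Blue marks the 8 members called lower, orange the 2 called higher, grey those not called, and dashed lines the fold threshold of 0.3. Fcrla and Cd180 lie farthest left among called members and Ebf1 farthest right.

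The B cell receptor chains did not pass the thresholds in either direction. Ighm was at 555, 472 and 553 CPM in vehicle replicates 1 to 3 and at 521, 526 and 548 CPM in S1P replicates 1 to 3. All S1P values lay inside the vehicle range, with a log2 fold change of 0.01 ± 0.08 (SE) and an adjusted p of 0.912. Over the alternatives, the Ighm log2 fold change ran from -0.06 to 0.05. Ighd, the IgD heavy chain of mature naive B cells, stood at 108, 93.1 and 107 CPM in vehicle and 79.7, 105 and 90.9 CPM in S1P libraries. The groups overlapped (log2 fold change -0.16 ± 0.10, adjusted p = 0.245). The Ighd value was -0.27 without S1P replicate 2 (adjusted p = 0.0176, under the fold threshold) and -0.07 without S1P replicate 1 (adjusted p = 0.605), again the ends of its range. Igkc stood at 182, 165 and 209.5 CPM in vehicle and 169.7, 259.5 and 197 CPM in S1P libraries, with S1P replicate 2 above all others (log2 fold change 0.17 ± 0.14, adjusted p = 0.380, from -0.02 without that library to 0.30 without S1P replicate 1). Cd79a, a signalling chain of the receptor, was at 72, 61.1 and 76.0 CPM in vehicle and 60.6, 67.3 and 65.6 CPM in S1P libraries. These values overlapped and the log2 fold change was -0.11 ± 0.09 (adjusted p = 0.364), from -0.20 without vehicle replicate 2 to -0.05 without vehicle replicate 3. Its partner Cd79b was at 62.7, 53.4 and 66.4 CPM in vehicle and 55.3, 43.3 and 52.7 CPM in S1P libraries, with S1P replicate 2 the lowest (log2 fold change -0.27 ± 0.11, adjusted p = 0.0778). Cd79b passed the thresholds without vehicle replicate 2 (-0.36, adjusted p = 0.0466) and without S1P replicate 1 (-0.34, adjusted p = 0.0361), and over all alternatives its adjusted p ran from 0.0206 to 0.267.

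Among 10 receptor signalling and co-receptor genes, 3 fell (Fcrla, Cr2 and Cd22) and none rose, against 10.4% and 12.7% of all tested genes. Fcrla, an intracellular Fc receptor-like protein of B cells (chr1:170745145-170755152, GRCm39), was at 11.8, 10.7 and 12.7 CPM in vehicle replicates 1 to 3 and at 6.79, 6.30 and 6.97 CPM in S1P replicates 1 to 3. Every S1P library was below every vehicle library. Its log2 fold change was -0.81 ± 0.13 (SE, edgeR adjusted p = 0.000941), a 1.75-fold lower level. Cr2 (chr1:194819119-194859091) was at 10.0, 6.81 and 9.56 CPM in vehicle and at 3.82, 6.56 and 5.88 CPM in S1P libraries. The groups were separated only narrowly, by vehicle replicate 2 and S1P replicate 2. The log2 fold change was -0.74 ± 0.21 (adjusted p = 0.0234), and the call was lost without vehicle replicate 1 (-0.63, adjusted p = 0.100), vehicle replicate 3 (-0.67, adjusted p = 0.0878) or S1P replicate 1 (-0.51, adjusted p = 0.0644). Over all alternatives run, its adjusted p ran from 0.000216 to 0.100. Cd22, an inhibitory lectin that binds sialic acid (chr7:30564827-30579767), was at 116, 89.2 and 115 CPM in vehicle and at 75.5, 82.0 and 79.0 CPM in S1P libraries. All S1P values were below the lowest vehicle value, with a log2 fold change of -0.44 ± 0.10 (adjusted p = 0.00642).

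The other 7 signalling genes passed no threshold. Swap70, a B cell protein that binds phosphoinositides and actin, was at 139.4, 105 and 137 CPM in vehicle and at 139.6, 171 and 154 CPM in S1P libraries. The S1P values were above all vehicle values, by less than 1 CPM at the boundary (log2 fold change 0.28 ± 0.11, adjusted p = 0.0708), and the thresholds were passed without S1P replicate 1 (0.35, adjusted p = 0.0299, the smallest of the alternatives, of which the largest was 0.267 without vehicle replicate 2, at 0.16). Cd72, an inhibitory co-receptor, had a log2 fold change of -0.23 ± 0.14 (adjusted p = 0.235), and 59.4% of its exon bases lie under Tesk1 on the opposite strand. The strand setting of the counting is not stated, so reads of the 2 genes may not be separated. Without S1P replicate 2, Cd72 passed the thresholds (-0.35, adjusted p = 0.0443), in a range of adjusted p from 0.0443 to 0.527 over the alternatives. Blk and Btk, kinases of the receptor, had log2 fold changes of -0.13 (adjusted p = 0.574) and 0.0049 (adjusted p = 0.981). Blnk, the adaptor that links SYK to downstream enzymes, had 0.16 (adjusted p = 0.346). Bank1, a scaffold protein, and Fcrl1, an Fc receptor-like surface protein, had -0.0033 (adjusted p = 0.984) and -0.13 (adjusted p = 0.608). Btk ran from -0.14 to 0.12 and Bank1 from -0.11 to 0.06 over the alternatives, so neither kept its sign. With each library left out, the values of Blk, Blnk and Fcrl1 moved by more than 1.5 times, from -0.23 without vehicle replicate 2 to 0.0061 without S1P replicate 2 for Blk, down to 0.03 without vehicle replicate 2 for Blnk, and from -0.31 without vehicle replicate 2 to 0.0086 without S1P replicate 1 for Fcrl1.

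Of 20 further genes of B cell receptor signalling, none fell and 4 rose, against 10.4% and 12.7% of all tested genes. The median log2 fold change of the 20 was -0.0049. Of the 4, values are given for 3, each of which rose by less than the fourth. Cd81, a tetraspanin of the B cell co-receptor complex, had a log2 fold change of 0.47 ± 0.08 (adjusted p = 0.00134). Dapp1 and Pik3ap1, adaptors of phosphoinositide 3-kinase signalling, had 0.46 ± 0.10 (adjusted p = 0.00482) and 0.37 ± 0.08 (adjusted p = 0.00554). T cells also express Cd81 and other genes of this list, and their share of these reads was not tested. Ptpn6, a phosphatase of inhibitory receptors, and Pik3cd, a phosphoinositide 3-kinase subunit, had high levels per length in this list, with log2 fold changes of 0.07 (adjusted p = 0.549) and -0.27 (adjusted p = 0.0785).

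All 5 MHC class II members had negative log2 fold changes, from -0.33 to -0.15, where 51.5% of all tested genes had positive ones. Of the 5, 2 were called lower, against 10.4% of all tested genes. Their summed level was 1083 ± 129 CPM in vehicle and 899.8 ± 90.2 CPM in S1P libraries. The groups overlapped, since vehicle replicate 2 (934.4 CPM) was below S1P replicates 1 and 3 (954.9 and 948.8 CPM), and S1P replicate 2 was the lowest at 795.7 CPM. H2-Aa, an alpha chain (chr17:34493404-34506798), was at 203, 174 and 206 CPM in vehicle and at 165, 129 and 169.5 CPM in S1P libraries. The groups did not overlap and S1P replicate 2 was the lowest of all. The log2 fold change was -0.33 ± 0.10 (adjusted p = 0.0353). It was -0.21 without S1P replicate 2 (adjusted p = 0.0374), under the fold threshold, and the adjusted p was 0.124 without vehicle replicate 1 and 0.135 without vehicle replicate 3, the largest of the alternatives run, of which the smallest was 0.000396. Ciita, the transactivator of the class II genes (chr16:10297923-10347694), was at 61.2, 43.1 and 52.2 CPM in vehicle and at 40.3, 39.0 and 45.1 CPM in S1P libraries. Its groups overlapped, and its call lay at the threshold (log2 fold change -0.33 ± 0.12, adjusted p = 0.050). The Ciita call was lost in 9 of 16 alternatives, in which the adjusted p ran from 0.00398 to 0.231 and the log2 fold change from -0.45 to -0.20. Without vehicle replicate 1, its log2 fold change was -0.20 (adjusted p = 0.231). The call was also lost without vehicle replicate 3 and without each of the S1P replicates.

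H2-Ab1 and H2-Eb1, the beta chains of the I-A and I-E molecules, and Cd74 were not called. H2-Ab1 was at 122, 98.5 and 127 CPM in vehicle and at 105, 109 and 99.4 CPM in S1P libraries, which overlapped (log2 fold change -0.15 ± 0.09, adjusted p = 0.245). The H2-Ab1 value was -0.26 without vehicle replicate 2 (adjusted p = 0.0480, under the fold threshold) and -0.08 without vehicle replicate 3 (adjusted p = 0.618), the ends of its range over the alternatives. H2-Eb1 was at 149, 124 and 145 CPM in vehicle and at 128, 91.2 and 128 CPM in S1P libraries, which overlapped too (log2 fold change -0.27 ± 0.12, adjusted p = 0.117). Without S1P replicate 2 the H2-Eb1 value was -0.12 (adjusted p = 0.226), and over the alternatives its adjusted p ran from 0.00786 to 0.311. Cd74 was at 630.3, 495 and 617 CPM in vehicle and at 517, 428 and 506 CPM in S1P libraries. Vehicle replicate 2 was below S1P replicates 1 and 3, and the log2 fold change was -0.26 ± 0.10 (adjusted p = 0.0764). Cd74 passed the thresholds without vehicle replicate 2 (-0.37, adjusted p = 0.0284) and without S1P replicate 1 (-0.31, adjusted p = 0.0467), in a range from 0.00255 to 0.261 over the alternatives. The Y box letters printed above occur in the windows of these 3 H2 genes and of Fcrla and Ms4a1, whose log2 fold changes were negative. They occur as well in the windows of Ebf1, Fcer2a and Cd40, with 0.60, 0.56 and 0.29, and not in that of Ciita, so these letters did not go with 1 direction.

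Of 14 further genes of class II presentation, 1 rose and none fell, against 12.7% and 10.4% of all tested genes. A further 2 passed the adjusted p alone and 11 passed neither. Cd86, a costimulatory ligand of CD28, was at 10.1, 8.64 and 10.1 CPM in vehicle and at 15.0, 16.4 and 16.7 CPM in S1P libraries. The S1P values were all higher, with a log2 fold change of 0.73 ± 0.11 (adjusted p = 0.000877). H2-DMb2, a chain of the peptide-loading chaperone, had -0.22 ± 0.08 (adjusted p = 0.0454), and H2-Ob, a chain of its B cell modulator, had 0.26 ± 0.09 (adjusted p = 0.0411), on the log2 scale. Of the 31-base words of H2-DMb2, 33.1% occur in other genes, so its reads may be split with a near-identical gene. Ifi30, H2-DMb2 and Ctss had the highest levels per length of this list, and Ifi30 and Ctss had log2 fold changes of 0.02 (adjusted p = 0.879) and 0.19 (adjusted p = 0.156). The regulators Rfx5, Rfxap and Rfxank passed no threshold, and 31.3% of Rfx5 and 33.1% of Rfxank exon bases lie under genes on the opposite strand.

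Of 4 transcription factors, 1 rose and 1 fell, against 12.7% and 10.4% of all tested genes, and 2 were not called. Ebf1 (chr11:44508138-44898918) was at 28.1, 21.8 and 27.6 CPM in vehicle and at 35.5, 42.8 and 39.5 CPM in S1P libraries. Every S1P library was above every vehicle library. The log2 fold change was 0.60 ± 0.11 (adjusted p = 0.00235), a 1.51-fold higher level. Pax5 was at 179.6, 139 and 176 CPM in vehicle and at 180.5, 251 and 191 CPM in S1P libraries. The S1P values were all above the vehicle values, but by less than 1 CPM between replicates 1, and S1P replicate 2 was far above the rest. With a log2 fold change of 0.33 ± 0.13 and an adjusted p of 0.0699 in edgeR, Pax5 was not called, and DESeq2 gave an adjusted p of 0.0412, in a range from 0.00478 to 0.263 over the alternatives. It passed the thresholds in edgeR without S1P replicate 1 (0.42, adjusted p = 0.0226), and its value was 0.17 without S1P replicate 2 (adjusted p = 0.164). Pou2af1 (chr9:51124984-51151380) fell, from 139, 126 and 152 CPM in vehicle to 99.8, 113 and 119 CPM in S1P libraries. Its groups did not overlap (log2 fold change -0.33 ± 0.09, adjusted p = 0.0142), and the call was lost without vehicle replicate 1 (-0.34, adjusted p = 0.0529), vehicle replicate 3 (-0.27, adjusted p = 0.0798) or S1P replicate 1 (-0.26, adjusted p = 0.0355), with adjusted p between 0.000402 and 0.0798 over the alternatives. Spib, an ETS factor of B cells and plasmacytoid dendritic cells, was at 47.7, 36.8 and 46.2 CPM in vehicle and at 33.9, 33.3 and 39.6 CPM in S1P libraries, with overlap at vehicle replicate 2 (log2 fold change -0.30 ± 0.11, adjusted p = 0.0617). Spib passed the thresholds without vehicle replicate 2 (-0.40, adjusted p = 0.0213), and without S1P replicate 3 (-0.38, adjusted p = 0.0498), and its adjusted p ranged from 0.0186 to 0.228 over the alternatives.

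Of 8 other surface and secretory pathway genes, 2 fell and 1 rose, against 10.4% and 12.7% of all tested genes. Another 1 passed the adjusted p alone. Cd180, a Toll-like receptor homologue of B cells (chr13:102830041-102876137), was at 33.3, 29.8 and 31.3 CPM in vehicle and at 14.1, 21.1 and 19.3 CPM in S1P libraries. The lowest vehicle value was well above the highest S1P value. The log2 fold change was -0.81 ± 0.13 (adjusted p = 0.00106). Ms4a1 (chr19:11227039-11243605) was at 229, 185 and 227 CPM in vehicle and at 151, 169 and 171 CPM in S1P libraries. All S1P libraries were below all vehicle libraries, with a log2 fold change of -0.39 ± 0.09 (adjusted p = 0.00889). Its adjusted p was 0.0513 without vehicle replicate 1 and 0.0508 without vehicle replicate 3, and as low as 1.27e-05 in other alternatives. Fcer2a, the low-affinity IgE receptor CD23 of mature B cells (chr8:3731737-3744183), rose from 95.8, 72.3 and 91.1 CPM in vehicle to 125, 130.1 and 127 CPM in S1P libraries. The S1P values were close to each other and all above the vehicle values. The log2 fold change was 0.56 ± 0.09 (adjusted p = 0.00135), a 1.47-fold higher level.

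Cxcr5, the receptor that guides B cells to follicles, was at 44.1, 34.4 and 38.7 CPM in vehicle and at 46.8, 47.8 and 47.9 CPM in S1P libraries. The groups did not overlap, and the log2 fold change of 0.28 ± 0.09 (adjusted p = 0.0412) missed the fold threshold, which it passed without vehicle replicate 1 (0.37, adjusted p = 0.0234). Over the alternatives its adjusted p ran from 0.0234 to 0.171. Cd40, the receptor for T cell help, was at 17.5, 16.3 and 21.5 CPM in vehicle and at 22.4, 22.0 and 23.3 CPM in S1P libraries. These groups did not overlap either (log2 fold change 0.29 ± 0.11, adjusted p = 0.0679). Cd40 passed the thresholds without vehicle replicate 3 (0.41, adjusted p = 0.0278), and its adjusted p ran from 0.0278 to 0.237 over the alternatives. Tnfrsf13c, the survival receptor for BAFF, was at 53.5, 43.3 and 51.1 CPM in vehicle and at 48.1, 73.6 and 54.4 CPM in S1P libraries, the highest in S1P replicate 2 (log2 fold change 0.24 ± 0.14, adjusted p = 0.213). Without S1P replicate 2 its log2 fold change was 0.05 (adjusted p = 0.726), and without S1P replicate 1 it passed the thresholds (0.37, adjusted p = 0.0405). Ly6d, a surface marker of early B cell commitment, had a log2 fold change of -0.06 ± 0.13 (adjusted p = 0.775), from -0.17 to 0.09 over the alternatives. Vpreb3 rested on 7 to 31 counts per library and had a log2 fold change of -0.79 ± 0.35 (adjusted p = 0.110). Without S1P replicate 1 it passed the thresholds (-1.23, adjusted p = 0.0367), and over the alternatives its adjusted p ran up to 0.299.

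The differences were unequal within the set, while the sum overlapped between groups. Ms4a1 made up 6.53%, 6.45% and 6.47% of the members' summed CPM in vehicle replicates 1 to 3 and 5.01%, 5.32% and 5.38% in S1P replicates 1 to 3. In its Ms4a1 share, vehicle replicate 2 stood beside the other vehicle libraries. This did not hold for every member. Fcrl1 made up 0.407% in vehicle replicate 2 against 0.518% and 0.514% in vehicle replicates 1 and 3, and Ly6d 0.499% against 0.413% and 0.402%. Fcer2a made up 2.73%, 2.53% and 2.60% in vehicle and 4.16%, 4.10% and 4.00% in S1P libraries. Cd22 made up 3.23% ± 0.10 in vehicle and 2.53% ± 0.05 in S1P libraries, Cd180 0.961% ± 0.075 and 0.581% ± 0.099, and Ebf1 0.783% ± 0.019 and 1.26% ± 0.08 (SD, n = 3 each). Cd79a kept a like share, at 2.12% ± 0.06 and 2.07% ± 0.05. Shares of a sum are tied to each other, so a rise in some lowers the rest, and no test was made on them.

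**Figure D3:**
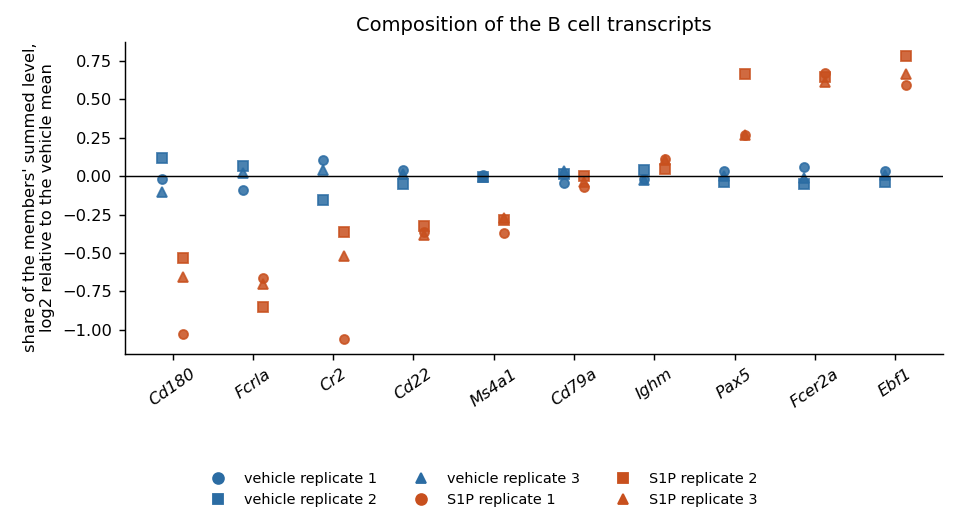
Share of the members' summed level taken by 10 members in each library, as the log2 of the share over the vehicle mean, with blue for vehicle and orange for S1P libraries. The 10 were chosen after their values were seen. Cd180, Fcrla, Cr2, Cd22 and Ms4a1 lie below 0 in every S1P library, Cd79a and Ighm near 0, and Pax5, Fcer2a and Ebf1 above 0.

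Fcer2a and Ms4a1, both surface genes of mature B cells, moved apart. Per length, Fcer2a stood at 0.834, 0.781 and 0.801 of the Ms4a1 level in vehicle replicates 1 to 3 and at 1.66, 1.54 and 1.48 of it in S1P replicates 1 to 3. The ratio was thus higher in each S1P library than in any vehicle library. Before division by length, Fcer2a was below Ms4a1 in every library, with means of 86.4 against 214 CPM in vehicle and 127 against 164 CPM in S1P libraries. Which of the 2 genes was more abundant therefore depends on the exon lengths used. Fcer2a over Cd79a was 0.607 ± 0.040 in vehicle and 0.971 ± 0.036 in S1P libraries. These pairs were chosen after the fold changes were known, so the ratios add no evidence to them.

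Immunoglobulin transcripts were spread over many variable segments. Of 113 annotated Ighv segments, 80 to 92 had at least 1 count in a library and 99 had a count in some library. Of 100 Igkv segments, 83 to 91 had at least 1 count in a library and 97 had one in some library. The most counted segment of each locus, Ighv1-26 and Igkv10-96, took 7.43% and 6.05% of its locus over the 6 libraries. Ighv1-26 had 384 counts and the next Ighv segment 203, and Igkv10-96 had 519 and the next Igkv segment 406, after which counts fell gradually with rank. Only 2 of 3 Iglv segments had counts. Summed Ighv levels were 60.2 ± 5.8 CPM in vehicle and 55.9 ± 3.5 in S1P libraries, and summed Igkv levels 103 ± 14 and 89.1 ± 6.4 CPM. The numbers rest on reads of 620 to 1133 per library for Ighv and 944 to 1815 for Igkv, and similar segments can share reads.

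**Figure D4:**
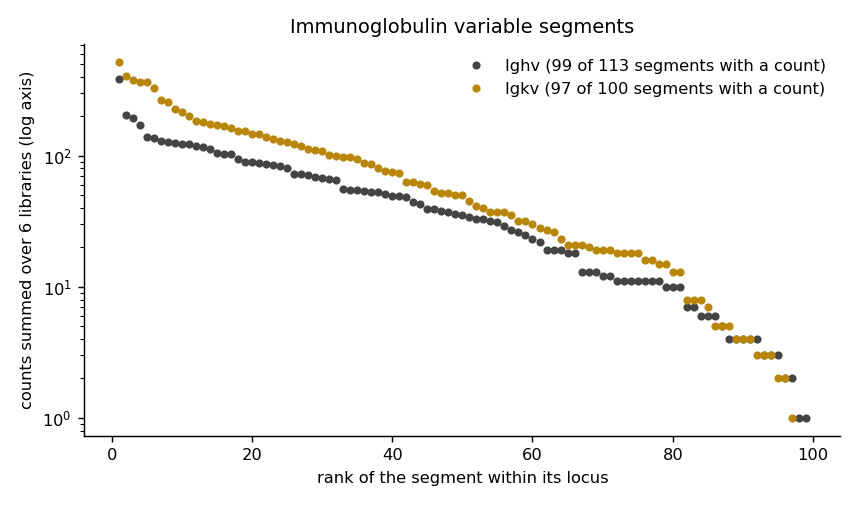
Counts summed over the 6 libraries for each immunoglobulin heavy (Ighv, dark) and kappa (Igkv, gold) variable segment, on a log axis, ordered by rank within its locus. Segments with no count are not drawn. Counts fall gradually from the top segment, with 99 of 113 Ighv and 97 of 100 Igkv segments counted.

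Constant gene counts showed mostly unswitched, kappa-bearing transcripts. Ighm and Ighd together made up 92.8% ± 0.5 of heavy chain constant counts in vehicle and 91.3% ± 0.3 in S1P libraries. The switched genes made up the rest, 7.25% ± 0.53 and 8.75% ± 0.33, and did not overlap between groups. Kappa made up 80.9% ± 0.3 of light chain constant counts in vehicle and 84.0% ± 1.1 in S1P libraries. With 3 libraries per group an exact permutation test cannot give a two-sided p below 0.1, so these shares were not tested. Of 9 switched and lambda constant genes, 7 were tested, and 1 rose and none fell, against 12.7% and 10.4% of all tested genes. Ighg1, the IgG1 constant gene, was at 21.5, 15.1 and 16.8 CPM in vehicle and at 25.7, 24.4 and 22.6 CPM in S1P libraries. The groups did not overlap (log2 fold change 0.44 ± 0.13, adjusted p = 0.0218). Iglc2, the most abundant lambda gene, had a log2 fold change of -0.29 ± 0.13 (adjusted p = 0.103), and 19.6% of its 31-base words occur in other genes, so reads may be split between lambda copies. Iglc3, the next lambda gene, had 0.15 ± 0.19 (adjusted p = 0.585), with 25.1% of such words in other genes. Igha and Ighe were too low to test, with 4 to 23 and 1 to 8 counts per library.

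Genes of germinal centre and plasma cells were mostly low. Of 14, 11 were tested, and 1 rose and 1 fell, against 12.7% and 10.4% of all tested genes. Tnfrsf17 had at most 1 count per library. Jchain had 6 to 15, Sdc1 13 to 33 and Mzb1 11 to 28 counts per library, and these 3 were tested and not called. Gm50318, a gene of the same strand, covers 48.3% of the Mzb1 exon bases, so the Mzb1 counts may leave out reads that could not be assigned to 1 gene. The factor Mybl1 rose (log2 fold change 0.39 ± 0.12, adjusted p = 0.0319) and Xbp1, a secretory pathway factor that T cells also express, fell (-0.35 ± 0.08, adjusted p = 0.00753), with 22.0% of its exon bases under Ccdc117 on the opposite strand. The highest levels per length were those of Irf4, Xbp1 and Bcl6. Irf4, which activated T cells express strongly, passed the adjusted p alone (0.27 ± 0.07, adjusted p = 0.0156), and Bcl6 had 0.12 ± 0.14 (adjusted p = 0.550).

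Of 12 other B cell genes, some of which the pathway lists also hold, 1 rose and none fell, against 12.7% and 10.4% of all tested genes. A further 3 passed the adjusted p alone and 8 passed neither. Dtx1, a NOTCH pathway regulator of marginal zone B cells, rose from 7.26 ± 1.16 to 10.1 ± 1.0 CPM (log2 fold change 0.47 ± 0.15, adjusted p = 0.0360), and 30.5% of its exon bases lie under Rasal1 on the opposite strand. H2-DMb2 and Bach2 had high levels per length, and Bach2, a repressor of plasma cell fate that T cells also express, had a log2 fold change of -0.08 ± 0.08 (adjusted p = 0.474). Cd37, a tetraspanin of mature B cells, passed the adjusted p alone, at -0.23 ± 0.08 (adjusted p = 0.0432). The others of that kind were H2-DMb2 and H2-Ob. Fcmr, the IgM Fc receptor, stood at -0.02 ± 0.14 (adjusted p = 0.941).

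Several members are not restricted to B cells, the class II genes also being used by dendritic cells and macrophages. Most markers of those cells were at few or 0 counts. The 12 macrophage and monocyte genes summed to 3.81 to 4.75 CPM in vehicle and 3.06 to 6.12 CPM in S1P libraries, most of it Cd68 with 34 to 59 counts, and 6 of the 12 were at 3 or fewer counts in every library, with C1qa and C1qc at 0 in all. Adgre1 and Itgam, the next highest per length, had 1 to 6 and 1 to 8 counts per library. Itgam has 67.4% of its exon bases under Gm49368 on the same strand, so its counts may leave out reads that could not be assigned to 1 gene. Of 6 neutrophil genes, 5 were at 3 or fewer counts in every library and S100a8, S100a9 and Elane were at 0, while Mpo had 0 to 5 counts. Among 10 dendritic cell genes Clec9a, with 77.1% of its exon bases under Clec1a on the opposite strand, was at 0, Itgax had 5 to 14 counts, and Ccr7, which T cells also express, was at 157 ± 12 CPM in vehicle and 211 ± 41 CPM in S1P libraries (log2 fold change 0.43 ± 0.12, adjusted p = 0.0199). Batf3 and Zbtb46, the next highest per length, had 34 to 88 and 35 to 102 counts per library and were not called (adjusted p = 0.613 and 0.139). The NK cell genes summed to 56.5 to 63.4 CPM in vehicle and 32.2 to 34.6 CPM in S1P libraries, almost all from Nkg7, which cytotoxic T cells also express. The other NK genes, Ncr1 and Klra4 highest among them per length, had 2 to 24 counts per library. Of 6 erythroid genes 4, and of 10 liver genes 9, were at 3 or fewer counts in every library, with 2 to 12 counts for Alas2, 1 to 6 for Hbb-bs and 0 to 4 for Apoa1 as the exceptions. Of the 31-base words of Hbb-bs and Klra4, 48.3% and 25.0% occur in other genes, so their counts are uncertain too. Floors and intervals here cover counting error only.

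T cell genes moved in the same comparison. Cd8a was at 221 ± 25 CPM in vehicle and 139 ± 7 CPM in S1P libraries (log2 fold change -0.67 ± 0.08, adjusted p = 0.000243), and Cd8b1 at 117 ± 25 and 79.5 ± 6.4 CPM (-0.55 ± 0.13, adjusted p = 0.00767). Cd3e had a log2 fold change of 0.15 ± 0.12 (adjusted p = 0.378). Cd3d and Cd3g passed the adjusted p alone, at -0.28 ± 0.07 (adjusted p = 0.0129) and -0.21 ± 0.07 (adjusted p = 0.0444), and both were lower in every S1P library than in any vehicle library. Gzmb, at 1510 CPM per kb the most abundant gene listed, had -0.10 ± 0.10 (adjusted p = 0.479). Among 4 CD4 T cell genes 2 rose, against 12.7% of all tested genes. These were Zbtb7b (0.37 ± 0.09, adjusted p = 0.00886) and Cd40lg (0.50 ± 0.13, adjusted p = 0.0134). Cd4 had 0.10 ± 0.10 (adjusted p = 0.487). Per length, Cd4 stood at 0.751 ± 0.137 of Cd8a in vehicle and 1.27 ± 0.25 of it in S1P libraries. The part that these shifts have in the differences of the B cell members was not tested. The plot of summed marker lists sets the B cell sum beside these other lists.

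**Figure D5:**
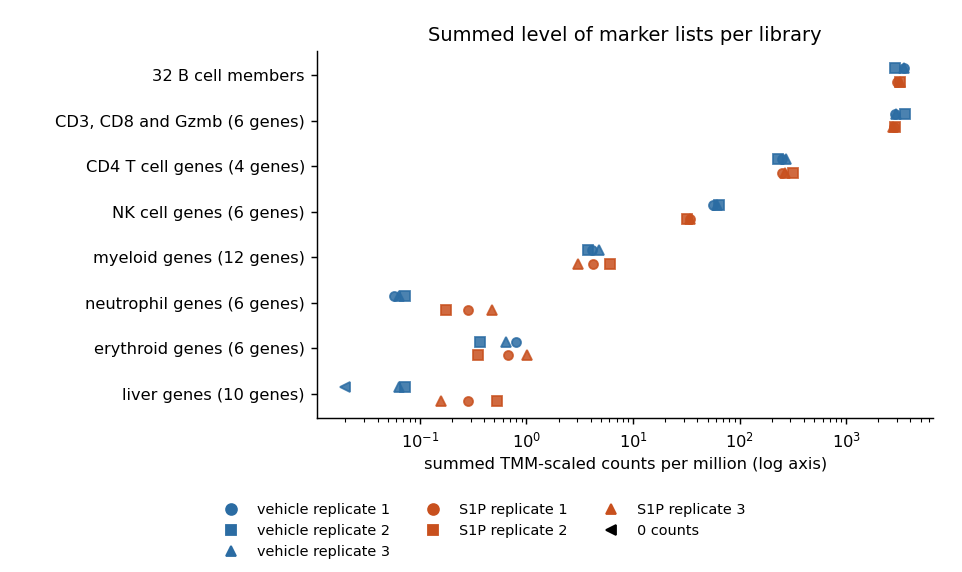
Summed level of each marker list in each library, in TMM-scaled CPM on a log axis, with blue for vehicle and orange for S1P libraries and 1 shape per replicate number. A left-pointing mark stands for a sum of 0 counts, and the myeloid list is the 12 macrophage and monocyte genes. The sum of the 32 B cell members lies at 2860.4 to 3508.5 CPM. That of the 6 CD3, CD8 and Gzmb genes lies at a like height, but Gzmb alone takes 2006 to 2637 CPM of it. Sums over lists of unlike size do not compare amounts of cell types. The myeloid sum reaches 6.12 CPM at most, the neutrophil sum 0.470 CPM and the liver sum 0.525 CPM.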

How the data were processed

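Spleen cell cultures labelled as CD8+ T cells gave 6 poly(A) RNA-seq libraries, 3 with vehicle and 3 with S1P. The authors deposited 1 table of whole-number read counts per gene, which were not normalized. Per the labels and the study's methods, strand-specific paired reads were trimmed with Trim Galore, aligned to GRCm39 with STAR and counted with featureCounts. Versions, annotation release, strand setting and treatment of multi-mapping reads are not given in the sources used here, so counts of genes that overlap another gene or share sequence with one are uncertain, and such overlap is given beside the genes named with over 20% of exon bases or 31-base words affected, and beside Iglc2. Totals of 12048880 to 17384084 counts per library set the precision.

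Groups came from the sample titles. Identifiers were matched to GENCODE vM39 (56323 of 56941). Counts were tested with edgeR 4.0.16 in R 4.3.3 (TMM factors, filterByExpr, quasi-likelihood test, treatment as the only term), and p-values were adjusted by Benjamini-Hochberg across the 13299 genes that passed the filter. Calls needed both an adjusted p of 0.05 or less and a change of 0.3 or more in either direction on the log2 scale, which are the study's thresholds. On simulated counts of this comparison (13093 genes), 200 genes were changed. Of these, 80 of 100 genes changed by 1 on the log2 scale and 56 of 99 changed by 0.5 were recovered, with 10 false calls. In the data 3071 genes were called, and the adjusted p depends on how many genes change, so recovery there may differ. CPM values are TMM-scaled, and levels of different genes were compared per kb of exon, with all annotated exons of a gene merged over its transcripts. Genes were named by list: every member, and from other lists at least the 3 highest in level per length, where they rose above the floor of 3 counts. Some genes of these lists are not reported here. The members and lists were chosen with earlier results of these data known, so no test was made over a list. Alternatives were DESeq2 1.42.0, limma-voom (limma 3.58.1), other scaling, filters and fold thresholds, a replicate block and each library left out. Replicates of a group differed in their counts by more than sampling noise, so none was counted as a duplicate. Promoter windows were read from the GRCm39 genome.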

Additional observations from a re-analysis of the deposited data

How the results depend on the processing

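The members called numbered 8 lower and 2 higher. Counts stayed within 7 to 9 lower and 2 to 3 higher with DESeq2, limma-voom, other scaling factors, other count filters or no fold threshold. At a log2 fold change of at least 1, 0 members were lower and 0 higher by edgeR (8 lower and 3 higher with no fold threshold), while over all genes 82 were lower and 383 higher, against 1384 and 1687. Leaving out each library in turn gave 3 to 11 members lower and 2 to 5 higher, with 3 lower without vehicle replicate 1 or 3, 11 lower without vehicle replicate 2 and 5 higher without S1P replicate 1. In the same fits 7.12% to 11.1% of all tested genes were lower and 8.58% to 12.9% higher. Each such fit has fewer samples. The counts moved both up and down in these fits, and the cause was not tested. Of 511 member results under an alternative, 465 kept their side of the thresholds, 29 lost a call, 17 gained one and 0 reversed a call.

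The log2 ratio of the summed level was -0.08, from -0.17 to -0.03 with each library left out, -0.11 with total counts and -0.0002 without Cd74 and the H2 genes. On average 174 immunoglobulin variable segments had at least 1 count and 77.8 at least 10. Same-numbered samples did not deviate together (correlations 0.12, -0.0060 and 0.048), so the numbers do not show a pairing. With the replicate number as a block, 8 members were lower and 2 higher, and all genes gave 1423 lower and 1697 higher. S1P replicates 1 and 3, but not 2, correlated best with the vehicle library of their own number. Vpreb3 had 7 to 31 counts per library and could not be tested under a minimum of 10.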
